A study of Mus musculus with 15 samples.

Results

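The p53 pathway and arrest genes are a set of 10 named genes: Trp53, Mdm2, Mdm4, Cdkn1a, Ccng1, Bax, Bbc3, Gadd45a, Phlda3 and Sesn2. They were taken by name from the gene table. Of the 10, 9 are rows of the table, which holds 14392 genes. Phlda3, which encodes a p53-induced inhibitor of Akt signalling, is not listed in the table, and its RNA was not analysed here.

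RNA-seq covered 8 libraries in 4 groups of 2, each library made from 10 pooled mouse embryos. WT embryos (Usp16+/+) and embryos with a maternal knockout of Usp16, called cKO below, were collected at the zygote (1-cell) and the 2-cell stage. The cKO embryos came from Usp16 fl/fl;Gdf9-Cre mothers, in which the Gdf9 promoter drives Cre in oocytes from the primordial follicle stage on, and from WT fathers, so they lack the maternal allele and carry an intact paternal one (Usp16♀−/♂+). All mice were on a C57BL/6 background, the mothers were superovulated before mating, and the fathers of both groups were WT. USP16 removes ubiquitin from a lysine of histone H2A; recombination in the oocyte is described as an in-frame deletion, and whether reads of the remaining transcript count toward Usp16 is not given in the sources used here. The other 7 samples of the series, H2AK119ub1 ChIP-seq, were not analysed here. The comparison of the 2-cell groups asks whether embryos that lacked the maternal enzyme showed a p53 response in their RNA. The labels do not say whether the collected cKO 2-cell embryos had stopped dividing.

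p53, the product of Trp53, is a transcription factor that is kept scarce by MDM2, a ubiquitin ligase, and restrained by its relative MDM4. After DNA damage or other stress the protein is stabilised and binds response elements near its targets, some of which stop the cell cycle (Cdkn1a, Ccng1, Gadd45a), promote cell death (Bax, Bbc3), answer metabolic stress (Sesn2) or restrain p53 again (Mdm2). Because this control acts largely on the protein, the RNA of the targets is the usual readout of p53 activity, and the level of Trp53 RNA itself is not. Transcription of the embryo's own genome starts in the mouse at about the 1-cell to 2-cell transition, so RNA seen in zygotes is largely the oocyte's.

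The DNA that p53 reads was looked for around the members, to show where the targets carry a recognisable element. A p53 response element is a pair of half-sites of 10 bases, searched for here only with no bases between them. The p53 consensus reads the same on both strands, so a search of the plus strand covered both. It was searched within 3000 bases of each gene's start in mm9 (NCBI37, GENCODE M1 annotation). Up to 2 mismatches were allowed, and the central C and G of each half-site were required. Of the 10 members, 3 held a match (30%), against 6.40% of 13338 protein-coding genes of the table, over windows of the same length. With at most 1 mismatch, 2 of the 10 members (Cdkn1a and Ccng1) and 1.00% of the table's genes held one. Each match below is printed 5′ to 3′ on the gene's strand with 5 bases of flank, and the capitals mark the 20 bases of the element.
Cdkn1a, chr17:29227873-29227892, plus strand, 42 bases upstream of the gene start, 1 mismatch: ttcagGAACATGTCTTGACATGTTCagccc
Ccng1, chr11:40568964-40568983, minus strand, 160 bases upstream of the gene start, 1 mismatch: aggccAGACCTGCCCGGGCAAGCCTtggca
Ccng1, chr11:40568438-40568457, minus strand, 366 bases downstream of the gene start in an intron, 1 mismatch: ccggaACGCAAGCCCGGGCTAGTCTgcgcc
Bax, chr7:52721944-52721963, minus strand, 315 bases downstream of the gene start in an untranslated exon part, 2 mismatches: cccccGGGCAGGCCCGGGCTTGTCGctggc
A match is a likeness of letters and not a measured binding site. The windows of the other members hold none by this search. It could not find half-sites set apart by other bases or elements with more than 2 mismatches, so those members may still carry an element.

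Gene levels are FPKM, fragments scaled to transcript length and to the mapped fragments of the library, and are relative to the other RNA of the library. A rise of one part of the RNA therefore lowers the rest, and fewer cells with a transcript cannot be told apart from less of it in each cell. The table sets every value under 1 to 1, called the floor below. Group values are means ± SD (n = 2 libraries). A change was called with limma on log2(FPKM + 1) at a Benjamini-Hochberg adjusted p under 0.05 over all 14392 genes, and separately where the group means differed by more than 3-fold. The log2 fold changes are on this log2(FPKM + 1) scale, which understates changes of low genes. With 2 libraries a group, the smallest two-sided exact permutation p is 0.333, so a call rests on limma's spread shared across genes and groups. The sources do not say whether the 2 libraries of a group came from different mothers, and p-values measure only the spread between these libraries.

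Replicates agreed less at the 2-cell stage of the cKO (Spearman rho 0.886) than in the other groups (0.963 to 0.984), and 1912 genes differed by more than 3-fold between the 2 cKO 2-cell libraries, against 20 to 199 elsewhere. The cKO 2-cell replicate 2 also had the highest summed FPKM (770989, against 547752 to 593317). Depth in reads is unknown. Usp16, the targeted gene, was at 184 and 187 FPKM in WT zygotes and 16.8 and 22.0 in cKO zygotes; at the 2-cell stage it was at 168 and 183 in WT and at 168 and 84.8 in cKO, which carry the paternal allele, so there it does not check the genotype. All 10 oocyte and embryo markers were listed, with sums of 9618 to 11369.8 FPKM in zygotes, 4071 and 4296 in WT 2-cell embryos, and 6559.9 and 9611 in cKO 2-cell embryos. The sums are weighted to the most abundant markers and do not give the direction of each. By limma, 1 of the 10 was higher in cKO 2-cell embryos (Dppa3) and 6 were lower (Bmp15, Nlrp5, Zar1, Zfp352, Zscan4d and Zscan4c). Among all genes 6.16% were higher and 24.6% lower. Of 12 cumulus and granulosa cell markers, 3 were listed, summing to 24.3 to 28.7 FPKM in zygotes and to at most 10.3 in 2-cell embryos with the floor counted in. Of these, Foxl2 and Tnfaip6 were at the floor in every zygote library and Cyp19a1 was at 22.3 to 26.7 there and at most 1.78 later. Of 6 sperm markers, 4 were listed, with sums of 16.5 to 23.1 in zygotes and 4.00 to 11.4 in 2-cell embryos. The part of these cells in the values below was not tested.

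**Figure D1:**
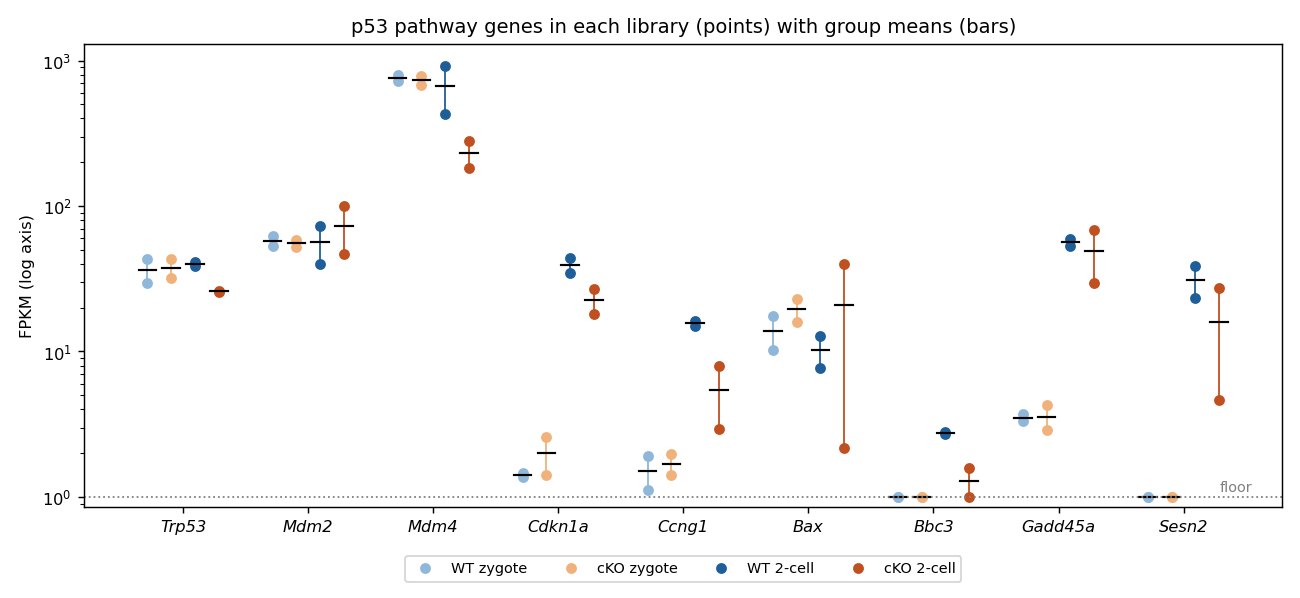
FPKM of the 9 listed p53 pathway genes in each of the 8 libraries on a log axis, as points, with a black bar at the mean of each group's 2 libraries and a line joining the 2. Cdkn1a, Ccng1, Gadd45a and Sesn2 sit at 1 to 4.3 FPKM in zygotes and higher in WT 2-cell embryos, and Bax and Sesn2 are spread widest between the 2 cKO 2-cell libraries.

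No member was higher in cKO than in WT 2-cell embryos by limma, and none differed by more than 3-fold in either direction. Bbc3, Ccng1 and Mdm4 were lower by limma, at 2.14-fold, 2.88-fold and 2.91-fold lower group means. The other 6 did not pass. With no adjustment, a p under 0.05 was reached by 0 on the higher and 5 on the lower side, the 3 above with Trp53 and Cdkn1a. Of all 14392 genes, 1315 on the higher and 4806 on the lower side reached it. Among all genes, limma called 6.16% higher and 24.6% lower in this comparison, and the 3-fold rule 2.84% higher and 13.5% lower. Both cKO libraries were below both WT libraries for 5 of the 9 members (Trp53, Mdm4, Cdkn1a, Ccng1 and Bbc3), an order that 43.4% of all genes showed, and above both for 0, against 14.0% of all genes. The members' median log2 fold change was -0.73, and the median of all genes was -0.30. No member was higher by limma in any of the 8 other settings of scaling, filter and model; without cKO 2-cell replicate 2, Bax was.

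**Figure D2:**
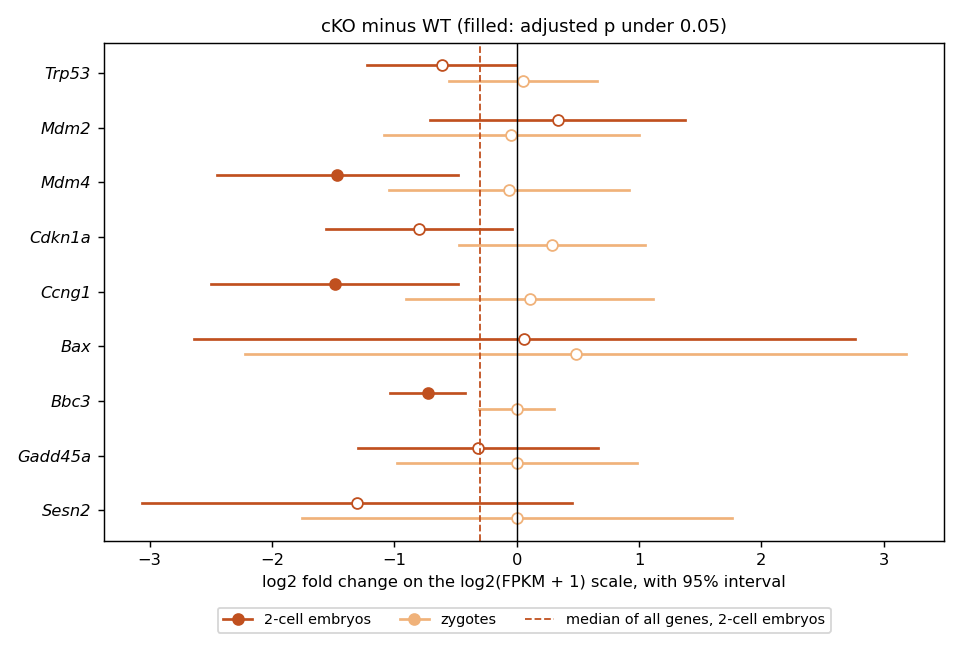
Log2 fold change of cKO over WT for the 9 listed members in 2-cell embryos (dark) and zygotes (light), on the log2(FPKM + 1) scale with 95% intervals from limma; filled points have an adjusted p under 0.05. Mdm4, Ccng1 and Bbc3 are filled, left of the dashed line at -0.30 that marks the median of all genes in 2-cell embryos, and every zygote interval spans 0.

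Trp53 (chr11:69393861-69405375, plus strand), the gene for p53 itself, was present in every library. In zygotes it was at 43.1 and 29.6 FPKM in WT and at 43.0 and 32.1 in cKO. In 2-cell embryos it was at 38.9 and 41.4 in WT and at 25.8 and 26.0 in cKO. Both cKO 2-cell libraries were below all 6 other libraries. The mean was 40.2 ± 1.8 in WT and 25.9 ± 0.18 in cKO 2-cell embryos, a ratio of 0.644. The log2 fold change of -0.61 (SE 0.25, 95% interval -1.22 to -0.01) had a limma adjusted p of 0.114 and did not pass. A processed Trp53 pseudogene exists in the mouse, and how the counting treated reads that match both is not given in the sources used here.

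Mdm2 (chr10:117125944-117147814, minus strand) encodes the ubiquitin ligase that destroys p53 and is itself a p53 target, so its RNA is a common mark of p53 activity. In WT it was at 52.8 and 61.9 FPKM in zygotes and at 39.7 and 72.8 in 2-cell embryos. In cKO it was at 52.5 and 58.5 in zygotes and at 99.5 and 46.6 in 2-cell embryos. The highest value was in cKO 2-cell replicate 1, while replicate 2 fell within the range of the WT 2-cell libraries. At the 2-cell stage the log2 fold change was 0.34 (SE 0.43, 95% interval -0.71 to 1.38; adjusted p = 0.589), and without cKO replicate 1 it was -0.20.

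Mdm4 (chr1:134886422-134921943, minus strand), whose product binds p53 and blocks its transcriptional activity, was the most abundant of the members in every library. It was at 726 and 798 FPKM in WT zygotes and at 678 and 783 in cKO zygotes. It was at 430 and 915 in WT 2-cell embryos and at 279 and 184 in cKO 2-cell embryos, so that both cKO 2-cell libraries were the lowest of the 8. The mean at the 2-cell stage was 672 ± 344 in WT and 231 ± 67 in cKO. Mdm4 was lower in cKO 2-cell embryos by limma (log2 fold change -1.47, SE 0.40, adjusted p = 0.0383), and its fall relative to the median of all genes was -1.17. The adjusted p was 0.0782 to 0.0874 without any 1 zygote library, 0.130 without WT 2-cell replicate 2 and 0.134 without cKO 2-cell replicate 2, and it stayed past the threshold without the other 2-cell library of each genotype. It was 0.148 after scaling each library by its median ratio.

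Cdkn1a (chr17:29227924-29237667, plus strand) encodes p21, the Cdk inhibitor through which p53 stops the cell cycle, and carries the element nearest to its gene start of those printed above. It was at 1.36 and 1.46 FPKM in WT zygotes and at 2.59 and 1.42 in cKO zygotes. It was at 34.6 and 44.1 in WT 2-cell embryos and at 26.9 and 18.1 in cKO 2-cell embryos. All 2-cell values were above all zygote values, and both cKO values were below both WT values at the 2-cell stage. The 2-cell means were 39.4 ± 6.7 in WT and 22.5 ± 6.2 in cKO, a ratio of 0.571. The log2 fold change of -0.80 (SE 0.31, 95% interval -1.56 to -0.04) had an adjusted p of 0.103; without cKO replicate 1 it was -1.07, with an adjusted p of 0.0491. In all 16 other settings and left-out libraries the difference kept its sign, from -1.07 to -0.34.

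Ccng1 (chr11:40562054-40568813, minus strand), the gene for cyclin G1, a p53 target that feeds back on MDM2, carries 2 of the elements printed above. It was at 1.12 and 1.91 FPKM in WT zygotes and at 1.41 and 1.97 in cKO zygotes. It was at 16.2 and 15.0 in WT 2-cell embryos and at 2.92 and 7.93 in cKO 2-cell embryos. Both cKO 2-cell values lay between the zygote values and the WT 2-cell values. The 2-cell means were 15.6 ± 0.82 in WT and 5.43 ± 3.5 in cKO, a ratio of 0.348. Ccng1 was lower in cKO by limma (log2 fold change -1.49, SE 0.41, adjusted p = 0.0393). It passed without cKO 2-cell replicate 2 (adjusted p = 0.0074) and did not when any other single library was left out (0.0510 to 0.171), and after median-ratio scaling the adjusted p was 0.222.

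Gadd45a (chr6:66985090-66987451, minus strand) encodes a stress protein that p53 and other factors induce and that acts on cell cycle kinases and stress kinases. It was at 3.33 and 3.70 FPKM in WT zygotes and at 2.87 and 4.26 in cKO zygotes. It was at 53.04 and 59.5 in WT 2-cell embryos and at 68.1 and 29.6 in cKO 2-cell embryos. The 2 cKO 2-cell libraries lay on either side of the WT pair. Its log2 fold change was -0.31 (SE 0.40, 95% interval -1.29 to 0.67; adjusted p = 0.589). It was 0.15 after median-ratio scaling, 0.27 without cKO replicate 2 and -0.90, with an adjusted p of 0.0385, without cKO replicate 1, so its direction depended on these settings.

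Bax (chr7:52717065-52722268, minus strand), whose product opens the outer mitochondrial membrane in apoptosis, varied most between replicates. It was at 17.6 and 10.2 FPKM in WT zygotes and at 23.0 and 16.0 in cKO zygotes. It was at 7.70 and 12.7 in WT 2-cell embryos and at 39.9 and 2.18 in cKO 2-cell embryos, which held both the highest and the lowest value of the 8 libraries and were 18.3-fold apart. The cKO 2-cell mean of 21.03 ± 27, 2.06-fold that of WT, therefore rests on replicate 1. On the log2 scale the fold change was 0.06 (SE 1.11, 95% interval -2.64 to 2.76; adjusted p = 1.00). It was 1.90 (adjusted p = 0.0414) without cKO replicate 2 and -1.78 (adjusted p = 0.0430) without cKO replicate 1, and it was -0.09 with no pseudocount and -0.12 after scaling to equal sums.

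Bbc3 (chr7:16894965-16903554, plus strand) encodes PUMA, a killer protein of the BCL2 family and one of the most direct p53 targets in cell death. It was at the floor in all 4 zygote libraries, at 2.81 and 2.73 FPKM in WT 2-cell embryos, and at the floor and 1.58 in cKO 2-cell embryos. Both cKO values were below both WT values, at levels near the floor in all. Its log2 fold change was -0.73 (SE 0.13, 95% interval -1.03 to -0.42; limma adjusted p = 0.0090), the lowest adjusted p of the members. The zygote values, all at the floor, add no spread to this fit. In a fit of the 2-cell libraries alone, the SE was 0.16. The call held in 12 of 15 other settings and left-out libraries; it was lost without WT 2-cell replicate 1 (adjusted p = 0.0530), after median-ratio scaling (0.157) and in a fit of the 2-cell libraries alone (0.107).

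Sesn2 (chr4:132047947-132066416, minus strand) encodes sestrin 2, a stress protein that restrains mTORC1. It was at the floor in all 4 zygote libraries, at 23.4 and 38.9 FPKM in WT 2-cell embryos, and at 27.3 and 4.62 in cKO 2-cell embryos. One cKO library lay within the WT range and the other below it, 5.92-fold apart. The log2 fold change was -1.31 (SE 0.72, 95% interval -3.06 to 0.45; adjusted p = 0.227). Without cKO replicate 1 it was -2.47 (adjusted p = 0.0068), and without cKO replicate 2 it was -0.14. In both Bax and Sesn2, replicate 2 of the cKO 2-cell group held the low value, and it did so for Gadd45a, Mdm2, Mdm4 and Cdkn1a as well; Trp53, Ccng1 and Bbc3 were higher there than in replicate 1.

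**Figure D3:**
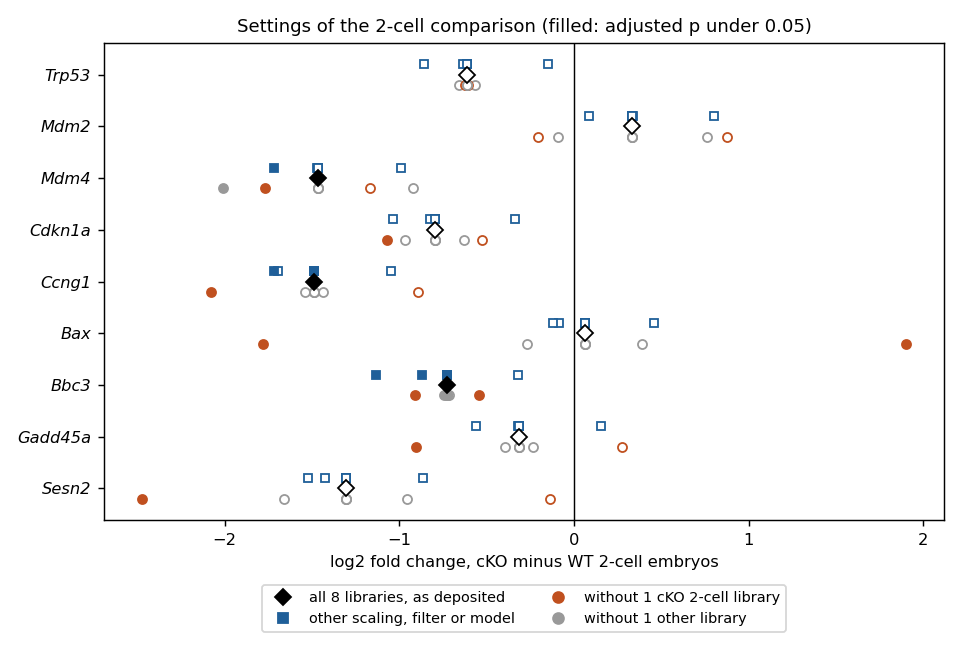
Log2 fold change of cKO over WT 2-cell embryos for the 9 listed members with all 8 libraries as deposited (diamonds), under other scalings, filters and models (squares), and without 1 cKO 2-cell library or 1 other library (circles); filled symbols have an adjusted p under 0.05. Trp53, Mdm4, Cdkn1a, Ccng1, Bbc3 and Sesn2 stay left of 0 in every setting shown, and Mdm2, Bax and Gadd45a cross it.

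In zygotes, before most of the embryo's own transcription, no member was called different between the genotypes. limma called 0 of the 9 members in either direction and 0 passed at an unadjusted p under 0.05. Among all genes it called 0.0208% higher and 0.0% lower. Bbc3 and Sesn2 were at the floor in every zygote library, so these 2 of the 9 could not have been called, passed 3-fold or separated. Usp16, the deleted gene, was not called here either: its group mean was 9.58-fold lower in cKO zygotes, with an adjusted p of 0.191. This fit shares its spread across groups, including the cKO 2-cell libraries, which agreed least. With 1 weight per group (4.06 for cKO zygotes, 0.20 for cKO 2-cell embryos), the Usp16 adjusted p was 0.0034. Of 15 alternatives, this 1 alone was past the threshold, and 0 members passed under it. No member was past 3-fold, where 0.104% of all genes were higher and 0.0486% lower. The cKO and WT libraries overlapped for every member, while 15.8% of all genes were above and 10.2% below, and the log2 fold changes ran from -0.06 for Mdm4 to 0.48 for Bax. For Trp53 the interval was -0.55 to 0.66 and for Cdkn1a -0.47 to 1.05, so differences within those limits remain possible. The limits are not adjusted for the number of genes. Larger differences also went uncalled, as for Usp16 at a log2 fold change of -3.21.

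From the zygote to the 2-cell stage, 5 members rose in WT by limma and 0 fell. Cdkn1a was 27.9-fold higher (log2 fold change 4.06, SE 0.31, adjusted p = 0.0002). Gadd45a was 16.0-fold higher (3.67, SE 0.40, adjusted p = 0.0007), and Ccng1 10.3-fold (2.74, SE 0.41, adjusted p = 0.0025). Sesn2 and Bbc3, at the floor in zygotes, were at least 31.1-fold and at least 2.77-fold higher (adjusted p = 0.0050 and 0.0017). The genes that rose are thus the targets for arrest and stress and 1 of the 2 for cell death. Among all genes limma called 34.2% higher and 15.5% lower over this transition. By the 3-fold rule 4 members were higher (Bbc3 was not) and 0 lower, against 26.0% and 8.78% of all genes, and both 2-cell libraries were above both zygote libraries for the 5 members that rose, against 49.4% of all genes, and below for none, against 26.4%. Trp53, Mdm2, Mdm4 and Bax did not pass, with log2 fold changes of 0.16, -0.09, -0.28 and -0.40. For Sesn2 the adjusted p was 0.0608 without WT 2-cell replicate 2.

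In cKO, 3 members rose over the same transition and 1 fell by limma; among all genes 24.6% were higher and 27.1% lower. By the 3-fold rule 4 were higher and 1 lower, against 22.8% and 19.2% of all genes. Both 2-cell libraries were above both zygote libraries for Cdkn1a, Ccng1, Gadd45a and Sesn2, against 32.3% of all genes, and below for Trp53 and Mdm4, against 35.5%. Cdkn1a was 11.2-fold higher (log2 fold change 2.97, adjusted p = 0.0005), Gadd45a 13.7-fold (3.35, adjusted p = 0.0008) and Sesn2 at least 16.0-fold (adjusted p = 0.0218). Mdm4 was 3.16-fold lower (log2 fold change -1.68, adjusted p = 0.0137). Ccng1, at 3.22-fold, and Bbc3, at 1.29-fold, did not pass (adjusted p = 0.0594 and 0.268). Trp53 was at a log2 fold change of -0.50 (adjusted p = 0.145), and Mdm2 and Bax were at 0.29 and -0.82. The Sesn2 call was lost without either WT 2-cell library (adjusted p = 0.0729 and 0.0728) or either cKO zygote library (0.103 and 0.102), and the Mdm4 call without cKO 2-cell replicate 2 (0.0724) or either cKO zygote library (0.0630 and 0.0856). Without cKO 2-cell replicate 1, the log2 fold changes were 1.74 for Ccng1, 0.37 for Bbc3 and -2.67 for Bax. That fit leaves 1 library in the group, and for Bbc3 it sets this library against zygotes at the floor.

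**Figure D4:**
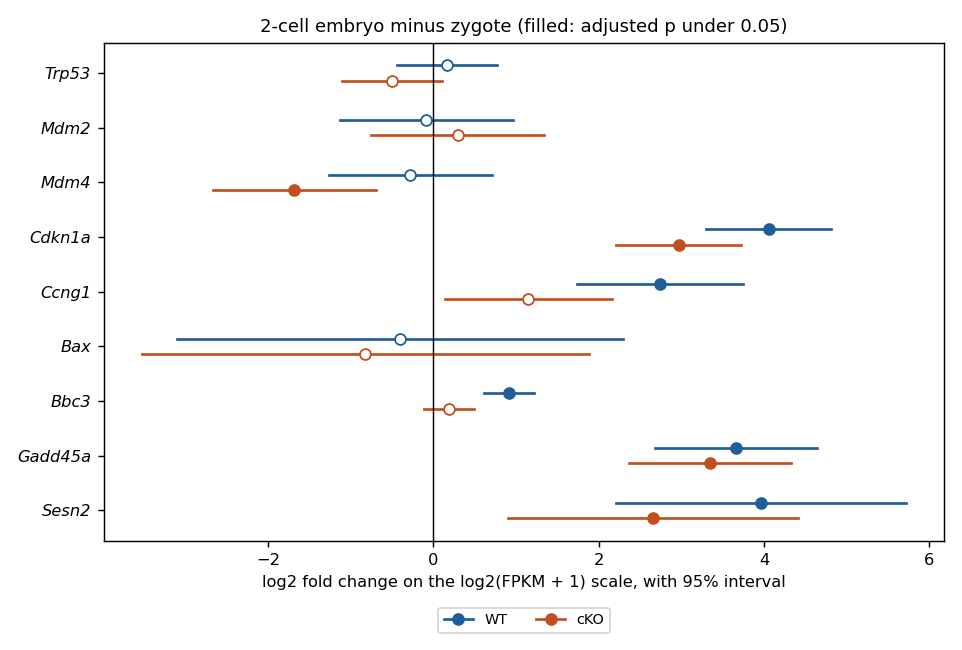
Log2 fold change from zygote to 2-cell embryo for the 9 listed members in WT (blue) and cKO (orange), with 95% intervals from limma; filled points have an adjusted p under 0.05. Cdkn1a, Gadd45a and Sesn2 are filled and right of 0 in both genotypes, Ccng1 and Bbc3 in WT, and Mdm4 is filled and left of 0 in cKO.

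A dependence of the genotype difference on stage was tested with the interaction term, the change from zygote to 2-cell in cKO minus that in WT. limma called 0 of the 9 members, against 1.58% of all genes higher and 10.2% lower. Without any 1 zygote library, 1 or 2 of all 14392 genes passed this test, 0 of them higher (an unadjusted p under 0.05 was reached by 463 to 622 on the higher and 2530 to 2950 on the lower side). Before adjustment, a p under 0.05 was reached by 4 members on the lower side and 0 on the higher, against 3664 and 769 of all 14392 genes. The 4 members were Bbc3 (log2 difference -0.73, adjusted p = 0.0501), Ccng1 (-1.59, adjusted p = 0.129), Cdkn1a (-1.09, adjusted p = 0.158) and Mdm4 (-1.40, adjusted p = 0.160). A weaker rise of Ccng1 in cKO than in WT is therefore not shown by this test with both replicates. Bbc3 passed with 1 weight per group (adjusted p = 0.0425) and after scaling to equal sums (0.0040). Without cKO 2-cell replicate 2, the log2 difference was -2.19 for Ccng1 and -0.91 for Bbc3. Without replicate 1, it was -2.47 for Sesn2 and -0.54 for Bbc3. Each of these fits leaves 1 library in that group, and Bbc3 and Sesn2 were at the floor in all zygote libraries.

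The wider p53 programme was read from 5 further lists, chosen with earlier results of these data known. Of 28 other p53 targets, 26 were listed in the table (Ephx1 and Fas were not); at the 2-cell stage 0 were higher in cKO by limma and 10 were lower (Btg2, Dcxr, Fdxr, Lrdd, Plk2, Pmaip1, Rrm2b, Sesn1, Trp53inp1 and Xpc). Among all genes 6.16% were higher and 24.6% lower. Their median log2 fold change was -0.40, against -0.30 for all genes. By the 3-fold rule 3 were lower (Fdxr, Dcxr and Plk2) and 1 higher, against 13.5% and 2.84% of all genes. The higher gene, Eda2r, a receptor of the TNF receptor family, was at 5.93 FPKM in cKO 2-cell replicate 2 and at the floor in the other 7 libraries (adjusted p = 0.245). Both cKO libraries were below both WT libraries for 14 of the 26 and above for 3 (Aen, Ccnk and 9630033F20Rik), against 43.4% and 14.0% of all genes. Fdxr, a mitochondrial ferredoxin reductase, was at 9.33 and 9.62 FPKM in WT 2-cell embryos and at the floor in the other 6 libraries, hence at least 9.47-fold lower in cKO (adjusted p = 0.0006). The floored values add no spread to that fit (SE 0.10). With the 2-cell libraries alone, the Fdxr SE was 0.21 (adjusted p = 0.0598). Dcxr, a sugar reductase, was at 3.28 and 12.2 in WT and at 1.07 and the floor in cKO (7.47-fold lower, adjusted p = 0.0307). The Dcxr fold was 11.8 without WT replicate 1 and 3.17 without WT replicate 2, and its call held in 7 of 16 alternatives, being lost without any 1 zygote library (adjusted p = 0.0696 to 0.0726) or either cKO 2-cell library (0.0929 and 0.109). Plk2, a polo-like kinase, was at 12.02 and 18.5 in WT and at 5.13 and 3.802 in cKO (3.42-fold lower, adjusted p = 0.0108). The Plk2 fold was 4.15 without WT replicate 1 and 2.69 without WT replicate 2. It was 4.02 without cKO replicate 1 and 2.98 without cKO replicate 2. The limma call for Plk2 was lost with 1 weight per group (adjusted p = 0.160) and with the 2-cell libraries alone (0.116). Like Cdkn1a, these 3 were at or near the floor in zygotes. Pmaip1, the gene for the killer protein NOXA, was at 7.401 and 7.83 in WT and at 3.52 and 4.35 in cKO.

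Of 22 genes that regulate p53, all listed, 0 were higher and 5 lower by limma in cKO 2-cell embryos (Chek1, Rfwd2, Daxx, Rchy1 and Usp2). Among all genes 6.16% were higher and 24.6% lower. The median of the list was -0.43. At an unadjusted limma p under 0.05, 1 of the list was higher and 9 lower, against 1315 and 4806 of all 14392 genes. Chek1, a checkpoint kinase that acts on p53 and on CDC25, was at 406 to 548 FPKM in zygotes, at 80.7 and 78.2 in WT 2-cell embryos and at 16.4 and 19.5 in cKO, 4.43-fold lower (adjusted p = 0.0024). Usp2, a deubiquitinase of MDM2, was at 18.6 and 13.1 in WT and at 6.04 and 2.72 in cKO (3.62-fold lower, adjusted p = 0.0147). The Usp2 fold was 5.82 without cKO replicate 1 and 2.63 without cKO replicate 2. It was 2.98 without WT replicate 1 and 4.26 without WT replicate 2. The limma adjusted p of Usp2 was 0.0758 with 1 weight per group and 0.143 with the 2-cell libraries alone. Hipk2, a kinase that phosphorylates p53, was at 13.6 and 14.03 in WT and at 6.28 and the floor in cKO (3.79-fold, adjusted p = 0.0503), and did not pass; without cKO replicate 1 the fold was 13.8 (adjusted p = 0.0039) and without replicate 2 it was 2.196. Chek1, Usp2 and Hipk2 had higher values in both zygote libraries than in both 2-cell libraries of the same genotype.

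Of 16 Cdk inhibitors and other arrest genes, 15 were listed. By limma 0 were higher and 6 lower in cKO 2-cell embryos (Cdkn1b, Cdkn2c, Rbl2, Btg3, Gadd45b and Gadd45g), again beside 6.16% and 24.6% of all genes. The median of the list was -0.63. Cdkn2c, the Cdk4 and Cdk6 inhibitor p18, was at 13.2 and 16.6 FPKM in WT and at the floor in both cKO libraries, at least 14.9-fold lower (adjusted p = 0.0021). Gadd45g was at 8.51 and 6.87 in WT and at the floor in both cKO libraries, at least 7.69-fold lower (adjusted p = 0.0031). Neither call held with 1 weight per group (adjusted p = 0.0979 and 0.0858) or with the 2-cell libraries alone (0.0598 for both). Gadd45b, the third of the Gadd45 family, was at 145 and 146 in WT and at 65.2 and 55.4 in cKO. The call for lower levels of Gadd45b and Gadd45g stands beside Gadd45a, for which the libraries overlapped; the difference between the 3 was not tested.

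Of 24 genes of the apoptosis machinery, 20 were listed. By limma 0 were higher and 6 lower in cKO 2-cell embryos (Bcl2l1, Bid, Bik, Casp2, Casp9 and Htra2), where 6.16% of all genes were higher and 24.6% lower. The median was -0.08, above the -0.30 of all genes. At an unadjusted limma p under 0.05, 1 of the list was higher and 6 lower, against 1315 and 4806 of all 14392 genes. The 6 lower genes include both survival and death genes. Bcl2l1, the gene for the survival protein BCL-XL, was at 32.4 and 42.2 FPKM in WT and at 9.27 and 4.601 in cKO (5.38-fold lower, adjusted p = 0.0056). The Bcl2l1 fold was 8.10 without cKO replicate 1 and 4.02 without cKO replicate 2. Bik, a killer protein, was at 13.8 and 9.66 in WT and at the floor and 3.93 in cKO (4.75-fold lower, adjusted p = 0.0199). The Bik fold was 2.98 without cKO replicate 1 and 11.7 without replicate 2, and its call held in 7 of 16 alternatives, being lost without WT 2-cell replicate 1 (adjusted p = 0.127) or 2 (0.0794), without any 1 zygote library (0.05001 to 0.0528) and after median-ratio scaling (0.0954). Casp2, a caspase linked to p53 through PIDD1, was at 18.6 and 14.1 in WT and at 4.59 and 4.75 in cKO (3.51-fold lower, adjusted p = 0.0047).

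p53 lowers many mitotic genes through p21 and the DREAM repressor complex. Of 16 such genes, all listed, 3 were higher in cKO 2-cell embryos by limma and 0 lower, where 6.16% of all genes were higher and 24.6% lower. The median of the list was 0.23. Cdk1, the mitotic kinase, was at 143 and 218 FPKM in WT and at 389 and 488 in cKO (2.43-fold higher, adjusted p = 0.0346). Ccnb1, its cyclin, was at 590 and 635 in WT and at 1073 and 1292 in cKO (adjusted p = 0.0309), and at 904 to 1179 in zygotes. Tpx2, a spindle protein, was at 73.6 and 73.5 in WT and at 149 and 125 in cKO (adjusted p = 0.0133). No gene of the list passed the test of the interaction. Before adjustment, a p under 0.05 was reached there by 2 on the higher and 0 on the lower side, against 769 and 3664 of all 14392 genes.

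The counts of all 5 lists moved with the fit, as did those of all genes. With 1 weight per group, 1 of the other p53 targets, 1 regulator, 2 arrest genes, 1 apoptosis gene and 0 DREAM genes passed, the 5 that passed being lower, against 0.834% of all genes higher and 5.93% lower. Fitted to the 2-cell libraries alone, limma called 0 of 14392 genes in either direction (an unadjusted p under 0.05 was reached by 819 on the higher and 3416 on the lower side) and so 0 of each list; by that unadjusted p the lower counts were 7, 5, 7, 5 and 1 in the same order, with 1 apoptosis and 3 DREAM genes higher. Median-ratio scaling centres the genes above the floor in every library, and under it 9.98% of all genes were higher and 12.1% lower. It gave 3 higher and 2 lower other p53 targets, 1 and 4 regulators and 1 and 4 arrest genes. Among the apoptosis genes the calls were 3 and 2, and among the DREAM genes 5 and 0. The medians were then -0.04, -0.08, -0.28, 0.32 and 0.70, against 0.00 for all genes.

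Single cKO 2-cell libraries moved the lists as well. Without replicate 2, where 11.5% of all genes were higher and 26.0% lower, 4 higher and 7 lower calls were made among the other p53 targets, 4 and 6 among the regulators, 1 and 7 among the arrest genes, 4 and 5 among the apoptosis genes and 5 and 0 among the DREAM genes. Without replicate 1, where 11.9% of all genes were higher and 33.1% lower, the calls were 2 and 8, 1 and 10, 0 and 6, 1 and 5, and 2 and 3, and the DREAM median was -0.36. The DREAM genes had 1 higher call with the replicate block and 1 higher and 1 lower after scaling to equal sums. Taken as log2 ratios of group means with floored values at 1, the medians were -0.51, -0.62, -0.86, -0.07 and 0.24.

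**Figure D5:**
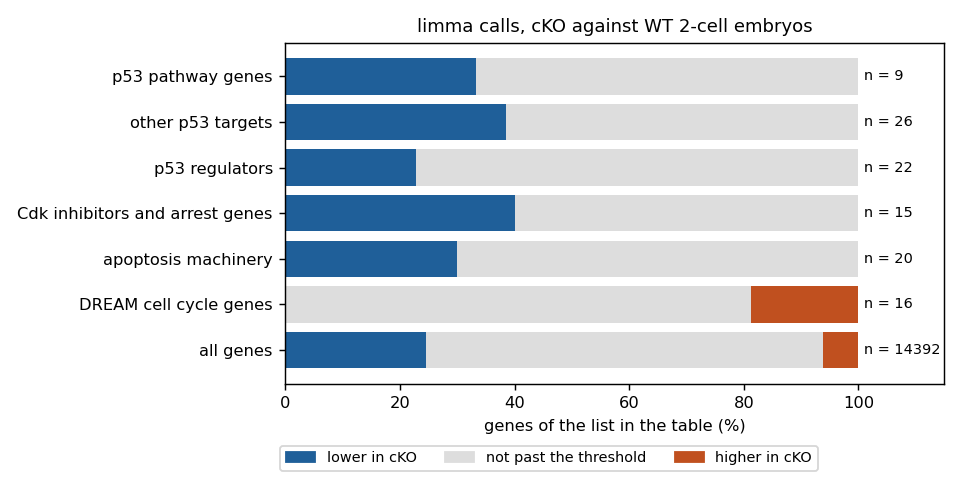
Share of each list's genes in the table (in %) that limma called lower (blue) or higher (orange) in cKO than in WT 2-cell embryos, with the number of genes at the right. The p53 pathway genes, the other p53 targets, the p53 regulators, the Cdk inhibitors and the apoptosis genes have lower calls alone, the DREAM genes have higher calls alone, and all genes have 24.6% lower and 6.16% higher.

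The genes whose levels across the 8 libraries were most like those of Trp53 and Cdkn1a were taken as the 3 with the highest Pearson r of log2(FPKM + 1), among 11509 genes above the floor in at least 4 libraries. For Trp53 they were Rnf123 (r = 0.986), Atat1 (0.969) and Ngef (0.965). For Cdkn1a they were Ddx51 (r = 0.998), Zfp352 (0.997) and Irf3 (0.996). Rnf123 and Ngef lay near the floor, at up to 2.97 and 2.39 FPKM, and were at the floor in both cKO 2-cell libraries. Zfp352, a 2-cell-stage zinc finger gene, was at 1.00 to 2.44 FPKM in zygotes, at 280 and 468 in WT 2-cell embryos and at 125 and 103 in cKO 2-cell embryos. These are descriptions over libraries that share 4 groups.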

How the data were processed

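Per the labels and the study's methods, RNA from 10 embryos per library was amplified by Smart-seq2, and the authors mapped trimmed reads to mm9 and computed FPKM; the submitters' processing notes name TopHat2 2.1.1 and Cufflinks 2.2.1. The deposited values are FPKM per gene, described as normalized, with values under 1 set to 1; the annotation and the further normalization are not given in the sources used here. FPKM carries no counts, so depth is unknown and precision rests on 2 libraries a group. Groups came from the labels.

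Group means were compared by the study's 3-fold rule. limma 3.58.1 (R 4.3.3) was fitted to log2(FPKM + 1) of all 14392 genes with a trend, 1 model of 4 groups and 4 residual degrees of freedom, Benjamini-Hochberg adjusted; it was tested on simulated data. Alternatives were a 2-fold threshold, other scalings, no pseudocount, a filter at 3 FPKM in 2 libraries, 1 weight per group, the 2-cell libraries alone, a replicate block and leaving out each library. The members, lists and tests were chosen with earlier results of these data known. Named genes are the members, Usp16, up to 3 genes a direction of each list with the largest fold past 3-fold and no overlap, and the 3 most like Trp53 and Cdkn1a; Eda2r, Pmaip1, Gadd45b, Cdk1, Ccnb1, Tpx2 and the list members called by limma or not overlapping were named after their values were seen. Genes are spelled as in the table (Lrdd is Pidd1, Rfwd2 is Cop1, 9630033F20Rik is Tigar). The RNA of Phlda3 was not analysed here, while the window around its gene start was searched for p53 elements.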

Additional observations from a re-analysis of the deposited data

Results flagged for a closer look

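The effect of genotype on Usp16 differed between the stages. The log2 fold change of cKO over WT was -3.21 in zygotes (limma adjusted p = 0.191, or 0.0034 with 1 weight per group). It was -0.55 at the 2-cell stage, and both cKO libraries were below both WT libraries at each stage. The interaction was 2.65 (SE 0.48, limma adjusted p = 0.0251). The adjusted p ranged from 0.0053 to 0.126 over 15 alternatives and was past the threshold in 7 of them. Without 1 library it was 0.0721 or 0.0667 (WT 2-cell replicates 1 and 2), 0.0977 or 0.103 (WT zygote) and 0.126 or 0.0938 (cKO zygote). No p53 pathway gene passed this test. With 2 libraries a group, no library could be tested as standing apart.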

How the results depend on the processing

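For the 9 members and the named genes, 802 of 931 results under the alternatives kept their direction and side of the threshold. At the 2-cell stage, the 0 members past 3-fold became 1 higher (Bax) and 3 lower (Mdm4, Ccng1 and Bbc3) at 2-fold, 2 lower after scaling to equal sums and 1 lower with a replicate block (same-numbered ratios). The 3 members lower by limma became 1 with 1 weight per group, where the lower calls over all genes fell from 3538 to 854, 0 with the 2-cell libraries alone (2 at an unadjusted p under 0.05), where 0 of 14392 genes passed, and 0 after median-ratio scaling, which brings the median of all genes from -0.30 to 0.00 and their calls from 887 higher and 3538 lower to 1437 and 1747. The 0 members lower by the interaction became 1 (Bbc3) with 1 weight per group and 1 (Bbc3) after scaling to equal sums. Leaving out each library, these counts ranged from 0 to 1 and 0 to 3 (3-fold, higher and lower), 0 to 1 and 1 to 6 (limma, higher and lower) and 0 to 2 (interaction, lower), and in cKO over the stages from 2 to 5 higher and 0 to 2 lower. The cause was not tested, except that a left-out library removes 1 residual degree of freedom.

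Replicate numbers were not taken to pair libraries: with 2 pairs a stage, same-numbered deviations correlated at 0.497 in zygotes and -0.239 in 2-cell embryos. With the replicate block the adjusted p was 0.0571 for Mdm4, 0.0328 for Ccng1 and 0.0163 for Bbc3, 2 members lower; with crossed numbers, chosen after seeing the data, the count was also 2.

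The sign changed after median-ratio scaling for Trp53 in WT over the stages (-0.16), Bax in the interaction (0.0028), and Gadd45a at the 2-cell stage (0.15), in zygotes (-0.019) and in the interaction (0.17). It changed with no pseudocount for Bax at the 2-cell stage (-0.086) and Gadd45a in zygotes (-0.0033), and after scaling to equal sums for both (-0.12 and -0.022). Leaving out a library, the genotype difference in zygotes ranged from -0.21 to 0.32 for Trp53, -0.16 to 0.069 for Mdm2, -0.17 to 0.041 for Mdm4, -0.12 to 0.33 for Ccng1 and -0.22 to 0.22 for Gadd45a. At the 2-cell stage it ranged from -0.20 to 0.87 for Mdm2, -1.78 to 1.90 for Bax and -0.90 to 0.27 for Gadd45a. Over the stages it ranged in WT from -0.10 to 0.43 for Trp53, -0.52 to 0.34 for Mdm2 and -0.82 to 0.27 for Mdm4, and in cKO from -0.25 to 0.83 for Mdm2 and -2.67 to 1.02 for Bax. The interaction ranged from -0.16 to 0.92 for Mdm2, -2.26 to 1.42 for Bax and -0.90 to 0.27 for Gadd45a. Bbc3 had no value under the filter, which removed it.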
